A study of Oryctolagus cuniculus with 134 samples.

Results

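S100A8, S100A9, S100A12, CSF3R and MPO are 5 genes whose products are abundant in neutrophils, and they were taken by their symbols from the 29587 genes counted in rabbit aorta and heart valves. Each symbol had a single row in the count table. The Ensembl identifiers are ENSOCUG00000009566 for S100A8, ENSOCUG00000008632 for S100A9, ENSOCUG00000022646 for S100A12, ENSOCUG00000011231 for CSF3R and ENSOCUG00000006526 for MPO.

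Neutrophils are short-lived white blood cells that are made in the bone marrow under the cytokine CSF3, circulate in blood and enter inflamed tissue. S100A8 and S100A9 form the calcium- and zinc-binding complex calprotectin, which fills the neutrophil cytosol, and S100A12 is a related protein of the same family. CSF3R is the receptor for CSF3, and MPO is the peroxidase of the primary granules, whose mRNA is made mainly in immature marrow cells and is scarce in mature blood neutrophils. S100A8 and S100A9 are also transcribed by monocytes and can be induced in macrophages, the lipid-laden cells of atherosclerotic lesions, so the members were set beside genes typical of macrophages.

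RNA from the proximal aorta and from the aortic, mitral, pulmonary and tricuspid valves of 27 male New Zealand White rabbits was sequenced, 1 library per tissue and rabbit. The animals entered the protocol at 12 weeks of age and were followed for 16 weeks. Ctrl rabbits ate chow and received no vitamin D2. CHT rabbits ate 0.3% cholesterol and Lard rabbits 5% lard, both with vitamin D2 at 25000 U per day for each 2.5 kg for 15 days. IR/CHT rabbits received the CHT regimen and cardiac irradiation after 8 weeks. Every tissue had 7 Ctrl, 6 CHT, 7 Lard and 7 IR/CHT libraries, apart from the mitral valve with 6 Ctrl libraries. Diet and vitamin D2 cannot be told apart against Ctrl, and all cells of a dissected tissue, blood included, contribute to a library. Only in the comparison of IR/CHT with CHT was the diet the same on both sides.

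The libraries held 13564979 to 50577676 assigned read pairs. Levels are given as CPM, read pairs scaled to the library total with trimmed-mean factors within each tissue. In the smallest library 3 read pairs equalled 0.221 CPM, and a level of 1 CPM rested on 13.6 read pairs with a counting error of 27.2%. Markers of other cell types moved with treatment. In the aorta smooth muscle genes summed to 71118.8 to 97999.5 CPM in Ctrl and 10003.7 to 52735.5 CPM in IR/CHT. In the aortic valve heart muscle genes had a median of 756 CPM in Ctrl (up to 12291 CPM) and of 53.1, 67.1 and 46.3 CPM in CHT, Lard and IR/CHT. Their part in the results was not tested. Smooth muscle genes stayed at or below 2614 CPM in the valves apart from IR/CHT pulmonary valve L176 with 20327.9 CPM, and the IR/CHT pulmonary valve L275 had endothelial genes at 104 CPM, the lowest of 27 pulmonary valves (median of the others 1467 CPM), so that both stood apart from their group.

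All members were close to the limit of detection. S100A9 had reads in 124 libraries and none in 10, with a median of 6 read pairs. CSF3R had reads in 86 libraries, S100A8 in 79, S100A12 in 64 and MPO in 46. The 5 genes together summed to 3384 read pairs over the whole series, with a median of 13 per library. Of these read pairs 16.0% lay in the 2 highest libraries, while 51 libraries held under 10 and 3 held none. A filter on low counts let through 8 of the 25 combinations of member and tissue. S100A8 passed in the aorta and aortic valve, S100A9 in every tissue but the mitral valve, CSF3R in the aortic and mitral valves, and S100A12 and MPO in no tissue. Since a member may have passed only through the group in which it was high, the members that passed do not stand for all members.

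In the edgeR model of each tissue S100A8 was the only member called in a comparison of treatments. It rose in the aorta of Lard and of IR/CHT rabbits and in the aortic valve of IR/CHT rabbits. Aortic valve S100A8 was also higher in IR/CHT than in CHT rabbits, which shared the diet.

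In the aorta of the 7 Ctrl rabbits S100A8 ran from 0 through a median of 0 to 0.112 CPM. The 6 CHT libraries lay at 0 to 0.378 CPM with a median of 0.269 CPM, and the 7 Lard libraries at 0 to 2.78 CPM with a median of 0.283 CPM. The 7 IR/CHT libraries lay at 0.269 to 2.66 CPM with a median of 0.771 CPM. All IR/CHT libraries were above all Ctrl libraries, whereas CHT and Lard libraries overlapped Ctrl, with 2 CHT and 3 Lard libraries at or below the highest Ctrl library. The fold changes against Ctrl rest on only 4 S100A8 read pairs in 3 of the 7 Ctrl libraries, against 147 in IR/CHT.

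**Figure D1:**
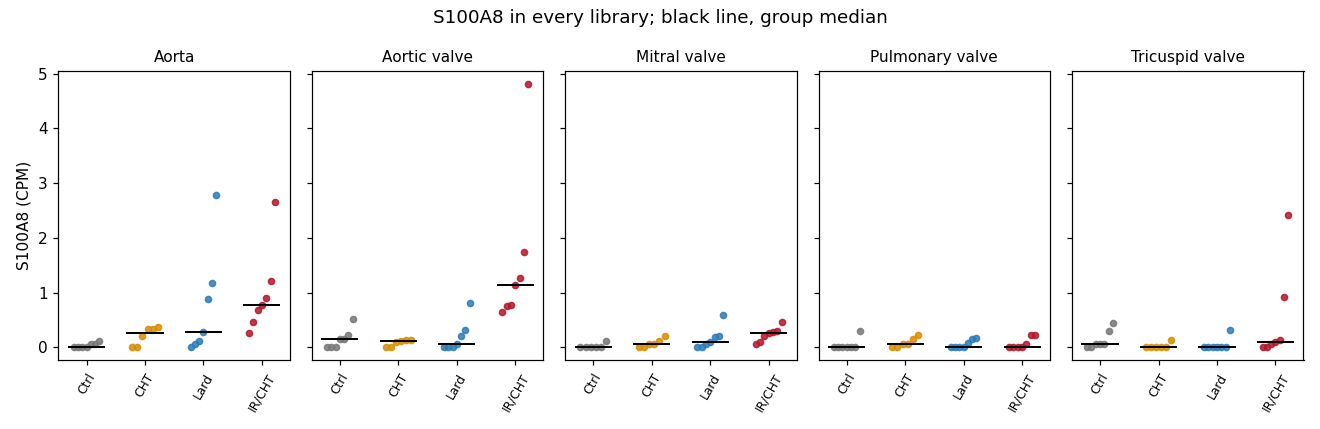
S100A8 level in CPM (vertical axis, linear) of each library, by tissue and treatment. Points are libraries and black lines are group medians. The IR/CHT libraries of the aorta (0.269 to 2.66 CPM) and aortic valve (0.643 to 4.81 CPM) lie above every Ctrl library of the same tissue.

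By edgeR's quasi-likelihood test with Benjamini-Hochberg adjustment, aortic S100A8 was higher in IR/CHT than in Ctrl by 4.69 on the log2 scale (SE 1.02, adjusted p = 0.000441). It was 1 of the 2 members tested there that passed the thresholds (adjusted p under 0.05 and a fold change over 1.5), where 22.2% of 14777 genes were called higher. The exact permutation test (two-sided, 7 against 7) gave p = 0.000583, the smallest it allows, and an adjusted p of 0.0194 over the 100 tests of all members. In the aorta of Lard rabbits the log2 fold change was 4.29 (SE 1.03, edgeR adjusted p = 0.0198), again for 1 of 2 members, where 2.57% of genes were called higher. That call rested on library L562. Without it the change was 3.45 with an edgeR adjusted p of 0.0804, and the exact permutation test with it gave p = 0.0262 (adjusted 0.260), with 4 of 7 Lard libraries above all Ctrl libraries.

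In the aorta of CHT rabbits S100A8 differed from Ctrl by 2.47 on the log2 scale and did not pass (SE 1.12, edgeR adjusted p = 0.0978), and 0 of 2 members were called where 14.2% of genes were higher. The difference between IR/CHT and CHT was 2.22 (SE 0.85, edgeR adjusted p = 0.142). None of the members was called in that comparison, in which 0.162% of genes were higher, although 6 of the 7 IR/CHT libraries lay above all CHT libraries.

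In the aortic valve S100A8 ran from 0 to 0.519 CPM in Ctrl (median 0.151 CPM) and from 0 to 0.138 CPM in CHT (median 0.109 CPM). In Lard it ran from 0 to 0.816 CPM (median 0.056 CPM), and in IR/CHT from 0.643 to 4.81 CPM (median 1.14 CPM). Neither the Ctrl nor the CHT range overlapped that of IR/CHT, while the Lard range did. The mean level was 1.59 CPM ± 1.47 (SD, n = 7) in IR/CHT and 0.150 CPM ± 0.187 (SD, n = 7) in Ctrl.

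The edgeR quasi-likelihood test gave a log2 fold change of 3.35 against Ctrl (SE 0.91, adjusted p = 0.00358) and of 4.14 against CHT (SE 1.01, adjusted p = 0.00371). S100A8 was in each case 1 of the 3 members tested that was called, where 21.1% of 15408 genes were called higher against Ctrl and 9.90% against CHT. Both comparisons reached the smallest exact permutation p (0.000583, adjusted 0.0194). Against Ctrl in CHT the log2 fold change was -0.80 (edgeR adjusted p = 0.606) and in Lard 0.34 (edgeR adjusted p = 0.845), with 0 of 3 members called where 8.42% and 0.0260% of genes were higher.

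By the names of the deposited counts the aortic valve libraries lay on 2 plates, and all CHT libraries were on plate 1. What a plate stands for is not stated. On plate 1 alone the edgeR log2 fold change of S100A8 between IR/CHT and CHT was 4.53 (adjusted p = 0.0068). Between IR/CHT and Ctrl it was 4.0 on plate 1 alone (adjusted p = 0.0312) and 2.45 on plate 2 alone (adjusted p = 0.190). All aorta libraries were on plate 2.

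In the mitral valve S100A8 did not pass the filter. Its 6 Ctrl libraries held 2 read pairs in total, both in a single library. The 7 IR/CHT libraries all held reads, at 0.057 to 0.457 CPM (median 0.253 CPM), and 5 of them were above all Ctrl libraries. The exact permutation test gave p = 0.0029 (adjusted 0.0728), and DESeq2 and 2 other edgeR settings called it. In the pulmonary valve no library exceeded 0.304 CPM. In the tricuspid valve the IR/CHT libraries ran from 0 to 2.42 CPM with a median of 0.091 CPM, the highest being library L177.

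Ordered by median, S100A8 was highest in the IR/CHT aortic valve (1.14 CPM) and the IR/CHT aorta (0.771 CPM), followed by the aorta of Lard (0.283 CPM) and CHT rabbits (0.269 CPM) and the IR/CHT mitral valve (0.253 CPM). Neighbours in this order overlapped in range. The difference in response to IR/CHT between aortic valve and aorta was -1.31 (SE 1.35, edgeR adjusted p = 0.469), and between aortic and pulmonary valve 2.79 (SE 1.61, edgeR adjusted p = 0.162; without L176 and L275 3.32, adjusted p = 0.132). Neither difference passed, in contrasts in which 36.7% and 40.8% of 17030 genes did. For CHT against Ctrl the difference between aortic valve and aorta was -3.27 (SE 1.56, edgeR adjusted p = 0.152, with 10.3% of genes called). Of the other contrasts between tissues, no member passed for IR/CHT in mitral minus aortic valve (18.8% of genes called) or mitral minus tricuspid valve (8.21%), nor for CHT in aortic minus pulmonary valve (5.11%) or mitral minus tricuspid valve (2.20%).

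Within IR/CHT a single rabbit, by the numbers in the column names, gave the highest S100A8 level in the aorta (2.66 CPM, library L566), the aortic valve (4.81 CPM, library L178) and the mitral valve (0.457 CPM). In its pulmonary and tricuspid valves S100A8 had no reads. Library L178 held 76 read pairs of S100A8, 7 of S100A9, 2 of CSF3R and none of S100A12 or MPO. Among 27 aortic valves L178 was highest for the secondary and tertiary granule list (23.9 CPM, others at most 10.9 CPM, of which MMP9 gave 21.1 CPM in L178), the macrophage reference genes and the shared phagocyte list, and lowest for the endothelium and platelet lists. It held 37 read pairs of LCN2. Library L566 held 61 of S100A8, 54 of S100A9, 5 of CSF3R and none of S100A12 or MPO. S100A8 was thus high in both libraries without a read of S100A12.

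S100A9, the partner of S100A8 in calprotectin, was the most often detected member and was called in no comparison by the edgeR model of each tissue. In the aorta it ran from 0.124 to 0.739 CPM in Ctrl (median 0.335 CPM) and from 0.377 to 2.35 CPM in IR/CHT (median 0.989 CPM). The groups overlapped. The edgeR log2 fold change was 1.81 (SE 0.78, adjusted p = 0.0544), and the exact permutation test gave p = 0.0111 (adjusted 0.158). DESeq2 called it (1.86, adjusted p = 0.0330), as did edgeR with all 5 tissues in 1 model (1.76, adjusted p = 0.0492) and without L551, L580 or L579 (edgeR adjusted p = 0.0434, 0.0416 and 0.0396). Lard libraries ran from 0.113 to 7.40 CPM with a median of 0.431 CPM, the top value again being L562, and gave a log2 fold change of 2.07 (SE 0.78, edgeR adjusted p = 0.177). In CHT S100A9 ran from 0 to 0.984 CPM with a median of 0.469 CPM and differed from Ctrl by 0.47 on the log2 scale (SE 0.82, edgeR adjusted p = 0.714).

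Aortic valve S100A9 ran from 0.076 to 0.618 CPM in Ctrl and from 0.169 to 1.62 CPM in IR/CHT, with medians of 0.159 and 0.443 CPM. The log2 fold change was 1.31 (SE 0.68, edgeR adjusted p = 0.112) against Ctrl and 1.05 (SE 0.69, edgeR adjusted p = 0.297) against CHT. The IR/CHT mitral valves held 0.227 to 1.0 CPM (median 0.329 CPM) and the Ctrl mitral valves 0 to 0.469 CPM (median 0.059 CPM). In the pulmonary valve the group medians lay between 0.341 and 0.504 CPM, and in the tricuspid valve between 0.228 and 0.600 CPM. S100A9 was called in neither right-sided valve. In the pulmonary valve 0.0484% of 14450 genes were called higher in CHT, 0% in Lard, 0.581% in IR/CHT and 0.0761% in IR/CHT against CHT. The tricuspid shares of 14700 genes were 0.0816%, 0%, 0.109% and 0%.

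Of the read pairs of S100A8 and S100A9 combined, not corrected for gene length, S100A8 made up 8.16% in the Ctrl aorta (exact 95% interval 2.27 to 19.6%) and 44.4% in the IR/CHT aorta (39.0 to 49.9%). The CHT and Lard aortas lay between, at 29.1% (19.8 to 39.9%) and 33.0% (27.8 to 38.6%). In the aortic valve the share was 35.3% in Ctrl (22.4 to 49.9%), 21.1% in CHT (11.4 to 33.9%), 29.9% in Lard (20.5 to 40.6%) and 68.4% in IR/CHT (62.7 to 73.8%). A high share was also found in the Lard mitral valve, at 63.6% of 33 read pairs (45.1 to 79.6%). These intervals cover counting error only and not the spread between rabbits. Per library, S100A8 read pairs outnumbered those of S100A9 in 4 of 7 IR/CHT aortic valves, 1 of 7 Ctrl and 0 of 6 CHT aortic valves. The exact permutation tests of the log2 ratio of both genes gave p = 0.0047 for IR/CHT against CHT and p = 0.0122 against Ctrl in the aortic valve, and p = 0.0076 for IR/CHT against Ctrl in the aorta. None of the 20 such tests passed after adjustment, the smallest adjusted p being 0.0758.

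**Figure D2:**
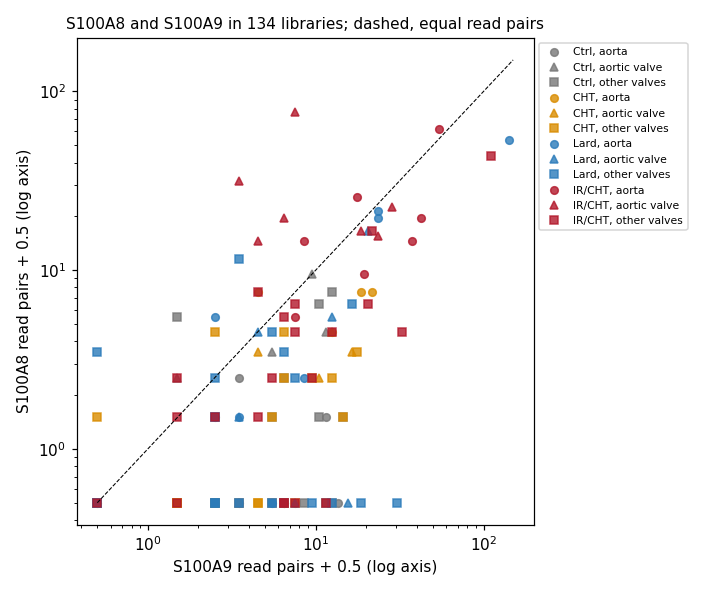
S100A8 read pairs (vertical) against S100A9 read pairs (horizontal) in each library, on log axes with 0.5 added, coloured by treatment and shaped by tissue, with a dashed line where both counts are equal. In the aortic valve (triangles) 4 of 7 IR/CHT libraries lie above the line, against 1 of 7 Ctrl and 0 of 6 CHT libraries.

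S100A12, a ligand of the receptor AGER in other mammals, had reads in 64 libraries and passed the filter in no tissue. In the aorta of IR/CHT rabbits it ran from 0 through a median of 0 to 0.716 CPM, against 0 to 0.186 CPM in Ctrl with a median of 0.055 CPM. IR/CHT aortic valves ran from 0 to 0.231 CPM with a median of 0, and in Ctrl from 0 to 0.750 CPM with a median of 0.056 CPM. S100A8 rose in both of these groups, and S100A12 overlapped Ctrl in both. In the Lard aorta, where the call of S100A8 rested on L562, S100A12 ran from 0 to 2.57 CPM (median 0.186 CPM) and overlapped Ctrl, and its 2 highest libraries, L562 and L563 (0.557 CPM), were also the highest Lard aortas for S100A8. Its 3 levels above 1 CPM were in the libraries L177 (tricuspid valve, IR/CHT, 3.89 CPM), L562 (aorta, Lard, 2.57 CPM) and L196 (pulmonary valve, IR/CHT, 2.18 CPM).

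S100A12 was the only member whose response was called different between tissues, and with only the 2 tissues compared it did not pass the filter and was not tested. The response to IR/CHT in the aortic valve minus that in the pulmonary valve was -7.08 on the log2 scale (SE 2.10, edgeR adjusted p = 0.00418), for 1 of the 4 members in the fit, where 40.8% of 17030 genes were called. All 7 Ctrl pulmonary valves were listed at 0 and the 7 IR/CHT pulmonary valves held 46 read pairs, 39 of them in L196. The aortic valves held 20 read pairs in Ctrl and 8 in IR/CHT. With a group at 0 the fitted value depends on the prior count and is not a bound. Without L562, L177 and L196 it was -4.82 (edgeR adjusted p = 0.0446), and with the rabbit as a block -5.64 (edgeR adjusted p = 0.0176). Without L176 and L275 it was -7.53 (edgeR adjusted p = 0.00331). Neither response passed within its tissue (exact permutation, p = 0.192, adjusted 0.563 in the pulmonary valve, and p = 0.396, adjusted 0.839 in the aortic valve).

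CSF3R was called in no comparison by the edgeR model of each tissue. In the mitral valve it ran from 0 to 0.267 CPM in Ctrl (median 0.023 CPM) and from 0.145 to 0.727 CPM in CHT (median 0.579 CPM). The groups overlapped at their edges. The log2 fold change was 2.79 (SE 1.0, edgeR adjusted p = 0.106), with 0 of 1 member called where 4.98% of 15322 genes were higher, and the exact permutation test gave p = 0.0065 (adjusted 0.108). Without Ctrl library L199 it was called (4.10, edgeR adjusted p = 0.0441). All 6 CHT mitral valves were on plate 1, against 4 Ctrl on plate 1 and 2 on plate 2. In IR/CHT and Lard mitral valves the median was 0.150 and 0.220 CPM, and no member was called where 11.1% and 0% of genes were higher, nor for IR/CHT against CHT (0.0522% of genes). The CHT response in the mitral valve minus that in the aortic valve was 4.84 (SE 1.62, edgeR adjusted p = 0.220, where 0% of genes passed).

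The red blood cell list also had a higher median in the CHT than in the Ctrl mitral valve, with overlapping ranges. The 4 of its 12 genes found by symbol summed to 10.2 to 63.7 CPM in CHT (median 38.5 CPM) and to 1.72 to 19.4 CPM in Ctrl (median 7.73 CPM), and none of the 4 was at 0 in any of these groups. EPB42, a protein of the red cell membrane skeleton, was higher by 2.75 (SE 0.71, edgeR adjusted p = 0.0159), and ALAS2, the first enzyme of haem synthesis in red cell precursors, by 2.09 (SE 0.76, edgeR adjusted p = 0.109). Their part in the CSF3R level was not tested.

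Aortic valve CSF3R ran from 0 to 3.06 CPM in Ctrl (median 0.225 CPM) and from 0.0565 to 1.44 CPM in IR/CHT (median 0.355 CPM). The groups overlapped throughout, and the log2 fold change was -0.54 (SE 1.05, edgeR adjusted p = 0.695). The highest Ctrl library, L150, decided the sign, since without it the value was 0.50. In the aorta, where CSF3R did not pass the filter, it ran from 0 to 1.54 CPM in Ctrl (median 0.387 CPM) and from 0.0484 to 0.956 CPM in IR/CHT (median 0.162 CPM). These groups overlapped as well (exact permutation, p = 0.442, adjusted 0.839).

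MPO had 203 read pairs in the whole series, 51 of them in library L562 (25.1%), and no other library held more than 9. Its median was 0 in 15 of the 20 groups. In the aorta it ran from 0 to 0.281 CPM in CHT with a median of 0.161 CPM, and Ctrl libraries were at 0 apart from one at 0.227 CPM. The exact permutation p of that difference was 0.0373 (adjusted 0.311). In the IR/CHT aorta and aortic valve MPO ran to 0.216 and 0.462 CPM, with medians of 0 and 0.0565 CPM. No treatment difference of MPO passed the adjusted exact permutation test. EPX, the related peroxidase of eosinophils, reached its highest level in the same library (60 read pairs, 3.15 CPM). Whether reads of these similar genes were split between them was not tested.

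**Figure D3:**
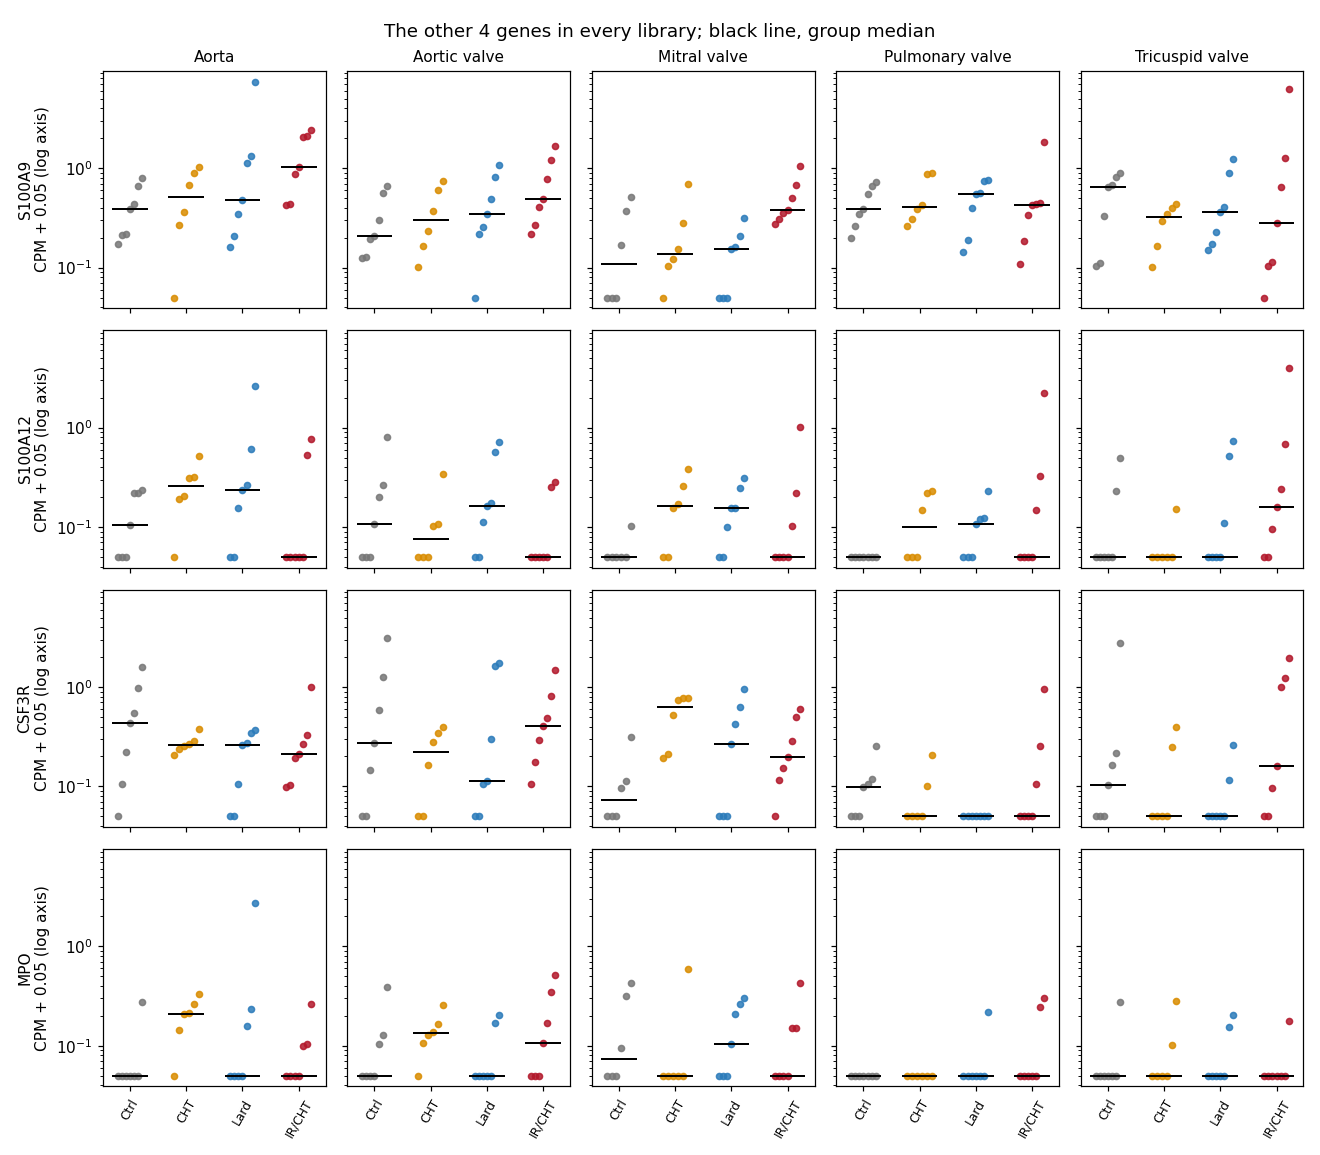
Levels in CPM of S100A9, S100A12, CSF3R and MPO in each library, by tissue and treatment, on a log axis of CPM with 0.05 added. Points are libraries and black lines are group medians. S100A9 was detected in 124 libraries, whereas S100A12 and MPO lie at 0 in most libraries and reach 3.89 and 2.68 CPM in single libraries.

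A few libraries stood apart for several members at once. Aorta Lard library L562 held 53 read pairs of S100A8, 141 of S100A9, 49 of S100A12, 51 of MPO and 4 of CSF3R. It was the highest of 27 aortas for the primary granule list (5.88 CPM, others at most 1.31 CPM) and for the secondary and tertiary granule list (124 CPM, others at most 62.1 CPM), of which MMP9 alone gave 97.5 CPM in L562. It was also highest for the eosinophil list (5.93 CPM, others at most 0.478 CPM), while for the macrophage list it ranked 15 of 27. For the red blood cell list it ranked 4 (52.6 CPM, against a median of 13.0 CPM in the others). It held 213 read pairs of LCN2, 119 of CAMP and 107 of BPI, which encode proteins stored in neutrophil granules.

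Tricuspid IR/CHT library L177 held 43 read pairs of S100A8, 110 of S100A9, 69 of S100A12 and 21 of CSF3R, with no read of MPO or LCN2. It was the highest of 27 tricuspid valves for the platelet list (42.9 CPM, others at most 31.2 CPM), the monocyte list (43.1 CPM, others at most 38.1 CPM), the receptors of S100 proteins and the primary granule list (0.225 CPM, others at most 0.201 CPM). It ranked 2 for the red blood cell and shared phagocyte lists and 5 for the macrophage list. Pulmonary IR/CHT library L196 held 4, 32, 39 and 16 read pairs of S100A8, S100A9, S100A12 and CSF3R and likewise none of MPO. L562 was thus the only one of these 3 libraries with MPO and LCN2 reads. The same rabbit's aortic valve, next to its aorta in L562, had no S100A8 read.

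**Figure D4:**
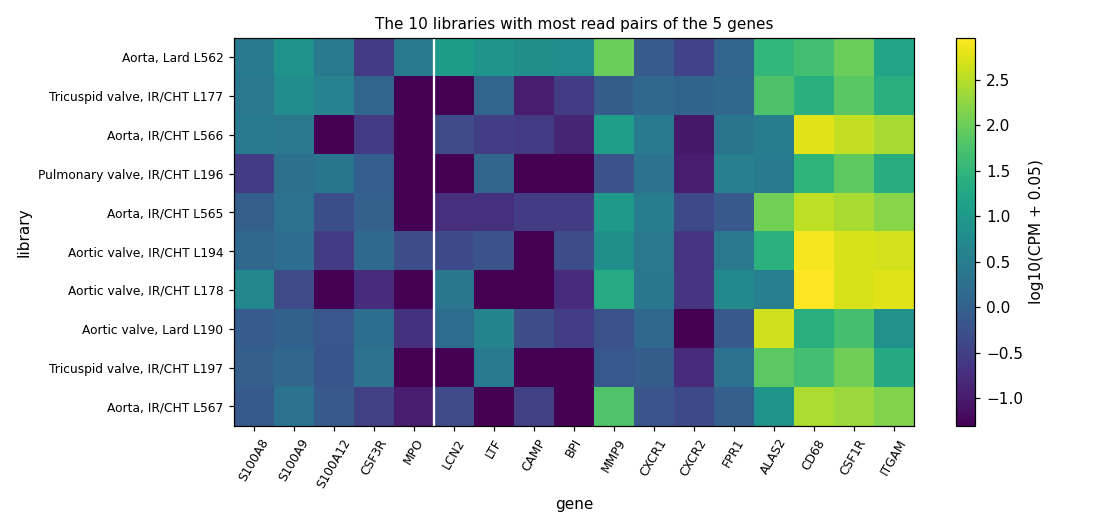
Levels, as log10 of CPM with 0.05 added, of the 5 members (left of the white line) and of other neutrophil, red cell and macrophage genes in the 10 libraries with the most member read pairs, ordered from the highest (298 read pairs in L562). L562 is bright for MPO, LCN2, LTF, CAMP and BPI. L178 and L566 are bright for CD68 and dark for S100A12 and MPO. L194 is bright for CD68 with 4 read pairs of S100A12 and 8 of MPO. L565 and L567 are also bright for CD68 and held 10 and 13 read pairs of S100A12.

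Of the 6 primary granule genes listed, 3 were found by symbol and none passed the filter. The serine protease CTSG had 14 read pairs in the whole series. BPI, which binds bacterial lipopolysaccharide, had reads in 7 of 7 IR/CHT aortic valves (0.127 to 1.08 CPM, median 0.462 CPM), 1 of 7 Ctrl and 1 of 6 CHT aortic valves. With no filter on low counts its edgeR log2 fold change was 4.16 (SE 1.03, adjusted p = 0.00233) against Ctrl and 5.4 (SE 1.18, adjusted p = 0.0021) against CHT, both resting on a group with reads in 1 library.

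Among the secondary and tertiary granule genes 7 of 10 were found. MMP9, a gelatinase that macrophages also make, was the only one of 1 tested in the aorta and rose in CHT (log2 fold change 6.02), Lard (7.51) and IR/CHT (7.02). The shares of all genes called higher in these comparisons were 14.2%, 2.57% and 22.2%. Its Lard level ran from 0.214 to 97.5 CPM with a median of 4.91 CPM, the highest library being L562. In the aortic valve it was 1 of 3 tested that rose, by 2.78 in CHT and 3.83 in IR/CHT, where 8.42% and 21.1% of all genes were called higher. The iron-binding LTF of secondary granules was lower in IR/CHT than in CHT aortic valves, with a log2 fold change of -2.22 (SE 0.63, edgeR adjusted p = 0.0117). LTF thus fell in the comparison in which S100A8 rose. LCN2 did not pass in the IR/CHT aortic valve (2.28, SE 1.08, edgeR adjusted p = 0.0823), and the collagenase MMP8 had 4 read pairs in all libraries.

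Receptor and surface genes of neutrophils were found for 7 of 14, of which 5 were tested. Of these, 4 of 5 rose in the IR/CHT aorta against Ctrl, among them the chemokine receptor CXCR1 (2.13), the formyl peptide receptor FPR1 (2.58) and the glucosidase MGAM (2.60), with a list median of 2.13 against 0.00 over all genes, of which 22.2% were called higher. For the IR/CHT aortic valve MGAM (3.91) and CXCR1 (1.23) rose and the decoy receptor IL1R2 fell (-1.44), with a list median of 1.37 against -0.06 over all genes, of which 21.1% were called higher. The summed level of the 7 genes had a median of 11.9 CPM in Ctrl and 13.9 CPM in IR/CHT aortas, and was lower in IR/CHT (14.5 CPM) than in Ctrl aortic valves (24.6 CPM) by its median, with overlapping ranges. IL1R2 alone had a median of 22.2 CPM in these Ctrl and 6.06 CPM in these IR/CHT valves. Only MGAM passed for IR/CHT against CHT in the aortic valve (1.42, edgeR adjusted p = 0.0331). CXCR2, the other chemokine receptor of the pair, did not pass the filter, and with no filter edgeR put it 4.05 higher on the log2 scale in the IR/CHT aorta (SE 1.14, adjusted p = 0.00641), against a single Ctrl read pair. The IR/CHT aortic valve gave 2.82 (SE 1.04, adjusted p = 0.0384), against 2 Ctrl read pairs. None of these genes is confined to neutrophils, since monocytes or lymphocytes express them as well.

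Of 10 ligands that attract or raise neutrophils, 5 were found and 3 were tested in the aorta and aortic valve. CXCL8, the main neutrophil chemokine, rose in the aorta in CHT (2.40) and IR/CHT (3.23), and in the aortic valve in IR/CHT (3.33 against Ctrl and 1.87 against CHT). With IR/CHT, IL1B rose by 2.74 in the aorta, and by 2.57 in aortic valves. CSF3, the ligand of CSF3R, did not exceed 0.416 CPM in any library of the series. Of the kinases and transcription factors downstream of CSF3R or active in granulocytes, 8 of 12 were tested, and 5 rose in the IR/CHT aorta, 6 in the aortic valve and 5 in the mitral valve, where 22.2%, 21.1% and 11.1% of all genes were called higher. Those of that list that rose in all 3 tissues included the kinase LYN and the factors STAT5A, CEBPA and CEBPB, which macrophages use too.

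Receptors of S100 proteins were found for 3 of 4 genes. CD14 rose by 5.43 and TLR4 by 3.24 in the IR/CHT aorta, and by 4.67 and 3.35 in the IR/CHT aortic valve, whereas AGER was lower in the latter (-1.11, edgeR adjusted p = 0.0417). Of 16 other S100 genes 9 were found and 4 tested. S100A4, a calcium-binding protein of motile cells, rose in the IR/CHT aorta (0.66) and aortic valve (2.01) and S100A1 in the IR/CHT aorta (3.15). The glial S100B fell in the IR/CHT aortic (-1.71) and mitral valves (-1.39). Of all genes 22.2% were called higher in the IR/CHT aorta and 21.1% in the IR/CHT aortic valve.

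Genes of macrophages and of phagocytes in general rose in the tissues in which S100A8 rose. Of 14 macrophage genes tested 13 rose in the IR/CHT aorta (median log2 fold change 2.84) and 11 in the aortic valve (1.93), where the medians of all genes were 0.00 and -0.06 and 22.2% and 21.1% were called higher. In CHT 10 and 7 rose, where 14.2% and 8.42% of all genes were called higher. CD68, a lysosomal protein of macrophages, rose by 4.82 in the IR/CHT aorta and 4.75 in the aortic valve, whereas the scavenger receptor CD163 rose in the former (1.82) and not in the latter (-0.21, edgeR adjusted p = 0.744). All 10 genes shared by phagocytes, such as the integrin ITGAM (7.11 in the aorta) and the oxidase subunit CYBB (3.95), rose in the IR/CHT aorta, aortic valve and mitral valve, and so did all 5 monocyte genes in the first 2 of these tissues. In the Lard aorta 4 of 14 macrophage and 5 of 10 shared phagocyte genes rose, where 2.57% of all genes were called higher. The 8 macrophage reference genes summed to 206 to 294 CPM in the Ctrl aorta and 628 to 1840 CPM in the IR/CHT aorta, and in the aortic valve to at most 434 CPM in Ctrl and 1685 to 2319 CPM in IR/CHT. In bulk tissue fewer cells of a type and less RNA per cell cannot be told apart.

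**Figure D5:**
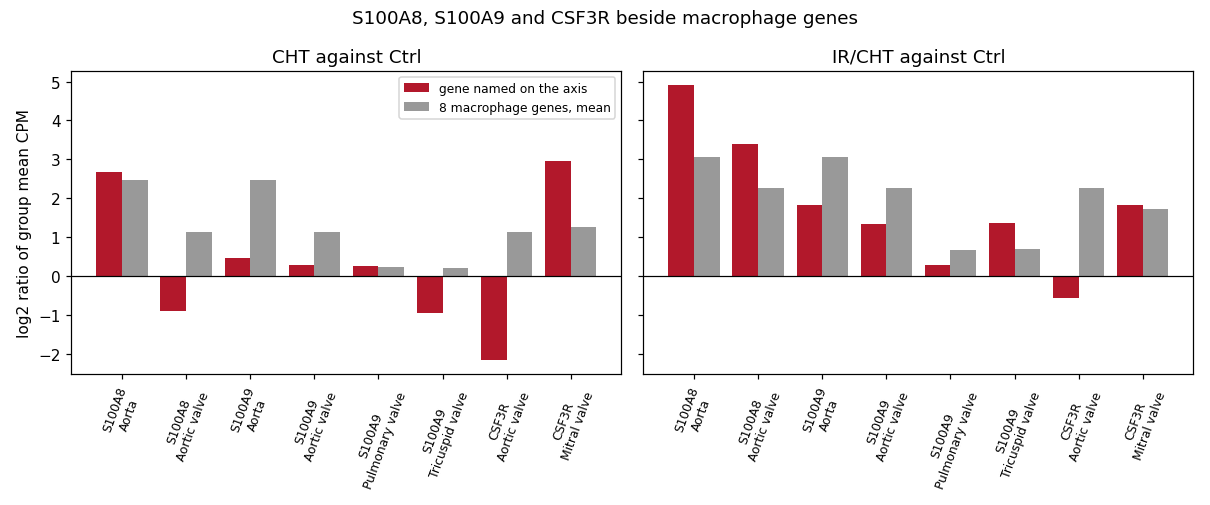
Log2 ratio of group mean CPM, with no prior count, of each member that passed the filter (red bars) beside the mean of 8 macrophage reference genes (grey bars), for CHT and for IR/CHT against Ctrl. In the IR/CHT aorta S100A8 (4.92) lies above and S100A9 (1.83) below the macrophage mean (3.06), and in the CHT aorta S100A9 (0.47) lies below it (2.47). This scaling was chosen after the data were seen. With a prior count of 2, S100A8 in the IR/CHT aorta was -0.26 relative to the macrophage mean.

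The question whether the members moved with macrophage genes was put to an exact permutation test of the difference between each member and the mean of CD68, CD163, MSR1, CSF1R, C1QA, C1QB, C1QC and MERTK, on log2 CPM with a prior count of 2. The members tested were those that passed the filter. S100A8 in the aortic valve held 10 or more read pairs in all 7 IR/CHT libraries but in only 1 other library. It thus passed through the group in which it was high. In the aorta S100A8 held at most 2 read pairs in a Ctrl library and 7 in a CHT library. There it passed through the Lard and IR/CHT groups, with up to 53 and 61 read pairs. The ratio tests of S100A8 in both tissues are therefore descriptions. Of 32 tests 3 passed after adjustment, each with an adjusted p of 0.0124. In the IR/CHT against CHT aortic valve S100A8 differed by 3.02 and the macrophage mean by 1.14, so that S100A8 was higher by 1.88 relative to it. All CHT aortic valves were on plate 1, and with relabelling within plates this exact permutation test gave p = 0.00476, the smallest its 210 relabellings allow, which did not pass over the 24 tests (adjusted 0.114). In the aorta S100A9 differed by 0.17 in CHT and the macrophage mean by 2.43, a relative difference of -2.26. For S100A9 in the IR/CHT aorta the values were 1.46 and 3.05, a relative difference of -1.58.

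For IR/CHT against Ctrl, S100A8 relative to the macrophage mean was -0.26 in the aorta, and 0.51 in aortic valves (exact permutation, adjusted p = 0.593 and 0.581). The prior count draws low genes towards 0 and understates their change. With ratios of group mean CPM and no prior count, chosen after these values were seen, S100A8 in the IR/CHT aorta was 1.86 above the macrophage mean (4.92 and 3.06, exact permutation, adjusted p = 0.00932), and for IR/CHT against CHT, with the same diet, 1.67 above it (2.26 and 0.59, exact permutation, adjusted p = 0.0186). In the test with the prior count the latter was 1.19 and did not pass (exact permutation, p = 0.0169, adjusted 0.108). The relation of aortic S100A8 to the macrophage genes therefore depended on how its few read pairs were scaled. With CD68 alone as reference 14 of the 32 tests passed. The relative position of S100A8 to CD68 in the IR/CHT aortic valve was then -1.97.

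Correlations of the members across all libraries, after removing the mean of each tissue and treatment, are given as a description, since libraries share rabbits, depth and zeros. They cover the 4 members that passed a filter over all 20 groups, which MPO did not. Among 11249 genes with a symbol, those closest to S100A8 were S100A9 (Pearson r 0.56), S100A12 (0.53), ACOD1 (0.46), CA2 (0.44) and CSF3R (0.42). Closest to S100A9 were S100A12 (0.65), S100A8, PGLYRP1 (0.39), KRT32 (0.37) and CSF3R (0.37). Without L562 and L177 the r between S100A8 and S100A9 was 0.47 and that between S100A9 and S100A12 was 0.58.

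CSF3R had a different neighbourhood, with TRIM58 (0.62), NFE2 (0.60), TSPO2 (0.59), PLEKHA6 (0.59) and MPP2 (0.59) first and ALAS2 in place 7 (0.57). The r with ALAS2 was 0.47 for S100A12, 0.36 for S100A8 (place 16) and 0.33 for S100A9 (place 12), against 0.15, 0.23 and 0.18 with CD68. All 4 members thus had a higher r with ALAS2 than with CD68. Each is a single gene of its list, so this does not compare cell types. With CD163, another macrophage reference gene, S100A9 had an r of 0.203. Of the other neutrophil genes, LCN2 (0.31), LTF (0.24), FPR1 (0.20) and CXCR1 (0.03) lay on both sides of CD68 in their r with S100A8. With S100A9 all of them (0.265, 0.248, 0.257 and 0.180) lay above CD68 (0.177). With S100A12 LCN2 (0.208), LTF (0.251) and FPR1 (0.198) lay above CD68 (0.145) and CXCR1 (0.093) below it. With CSF3R none lay above CD68. In the IR/CHT aortic valve, where S100A8 rose, ALAS2 was lower than in Ctrl (-2.50, SE 1.01, edgeR adjusted p = 0.0433), and the part of red cell genes in the S100A8 level was not tested.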

How the data were processed

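The authors deposited raw counts of read pairs per gene in 2 tables, named plate 1 and plate 2, which were joined by gene. Libraries were made from 10 ng of RNA with a stranded total RNA kit (SMARTer Pico v2), and per the labels reads were processed with bcl2fastq 2.20 and nf-core/rnaseq 1.4.2 against OryCun2.0 and Ensembl release 99. The read counter was not given in the sources used here. No sequence or coordinate of the members was used here.

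Counts were analysed with edgeR 4.0.16 in R 4.3.3. Within each tissue the 4 treatments shared a quasi-likelihood model (robust, TMM factors, filterByExpr with a minimum count of 10), and a call needed an adjusted p (Benjamini-Hochberg) under 0.05 and a fold change over 1.5, the adjustment running over all genes tested. Differences between tissues were contrasts in 1 model of 20 group means, called at an adjusted p under 0.05. Standard errors are the absolute log2 fold change over the square root of the F statistic. The model was tested on simulated counts. Members were also compared by exact permutation tests (two-sided) of log2 CPM with a prior count of 2, alone and relative to 8 macrophage genes, adjusted over 100 and 32 tests. The exact tests of all 5 members with no filter, the fits without L562, L177, L196, L176 or L275 outside the planned leaving out of single libraries, and the ratios of group means were chosen after seeing the data.

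The members and lists were chosen with earlier results of these data known, so their counts are descriptions. Listed genes are named where among the 4 most significant called genes of a list or in a fixed set of defining genes. ELANE, PRTN3, AZU1, CD177, PADI4, HBA and HBB of that set had no row under their symbol, and some of its macrophage genes are given only as a sum. BPI and the listed kinases and factors that rose in all 3 tissues were named after their values were seen. Some listed genes are not reported here. Genes alike to a member were the 5 of highest Pearson correlation, for members passing the filter over all 20 groups because none passed in all 5 tissues.

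Library totals ranged from 13564979 to 50577676 read pairs. Numbers in the column names that recur across tissues were read as rabbit numbers, which the labels do not state. Deviations from group means correlated more within than between rabbits (median r 0.202 against -0.00402 for aorta and aortic valve, 0.434 against -0.0125 for aortic and mitral valve), so the rabbit was also run as a block. Each treatment comparison within a tissue is between different rabbits. Alternatives were DESeq2 1.42.0, its size factors, no filter, other sets of samples, plate, each library left out, and other references and prior counts.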

Additional observations from a re-analysis of the deposited data

Results flagged for a closer look

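There were 100 groups of 6 or 7 libraries, 1 for each member, tissue and treatment. In 13 of them a library lay far from the rest of its group by Dixon's gap test. The nominal rate of about 1 group in 20 does not apply to these values, and the 13 are not compared with it. In a group otherwise at 0, a single library with reads gives the largest gap possible. These tests are not independent, since members share libraries and many groups lie at 0.

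Library L562 of the Lard aorta had MPO at 2.68 CPM (51 read pairs) where the others reached 0.186 CPM. Library L196 of the IR/CHT pulmonary valve had S100A12 at 2.18 CPM (39 read pairs), and L195 of the IR/CHT mitral valve, from the same rabbit, had S100A12 at 0.953 CPM (19 read pairs). L168 of the Ctrl tricuspid valve had CSF3R at 2.73 CPM (43 read pairs) where the others reached 0.165 CPM.

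The other 9 rested on 4 to 11 read pairs each. S100A8 stood apart in the pulmonary Ctrl library L184 (0.304 CPM) and the tricuspid Lard library L542 (0.315 CPM), and S100A12 in the aortic valve CHT library L265 (0.291 CPM). MPO stood apart in the aorta in Ctrl L551 (0.227 CPM) and IR/CHT L579 (0.216 CPM), in the aortic valve in Ctrl L198 (0.337 CPM), in the mitral valve in CHT L187 (0.541 CPM), and in the tricuspid valve in Ctrl L280 (0.225 CPM) and CHT L247 (0.232 CPM).

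The response of S100A12 to IR/CHT differed between the aortic and the pulmonary valve (-7.08 on the log2 scale, SE 2.10, edgeR interaction, adjusted p = 0.00418), with 39 of the 46 pulmonary IR/CHT read pairs in L196. Neither response passed alone (exact permutation, adjusted p = 0.563 in the pulmonary and 0.839 in the aortic valve).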

How the results depend on the processing

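Over 327 alternative counts of called members 314 were within 1.5 times of the main count. Most main counts were 0, so this total says little about the comparisons with a call. In the Lard aorta the count of 1 became 0 with only the 2 groups compared, where S100A8 was not tested, and by exact permutation, and was 0 to 1 with single libraries left out (0 without L562). In the IR/CHT aorta it became 2, with S100A9, in DESeq2 and in the model of all 5 tissues, and was 1 to 2 with single libraries left out (2 without Ctrl L551, IR/CHT L580 or L579). In the IR/CHT aortic valve against Ctrl it was 0 on plate 2 alone (4 Ctrl, 3 IR/CHT) and 1 on plate 1 alone (3 Ctrl, 4 IR/CHT). In the mitral valve it was 0 to 1 for CHT (1 without Ctrl L199), and for IR/CHT it became 1 with no filter, in DESeq2 and with all 5 tissues, each time S100A8 against 2 Ctrl read pairs. The S100A12 difference between aortic and pulmonary valve gave 0 calls with only the 2 tissues compared, since S100A12 then failed the filter. Of the ratio tests, 14 passed with CD68 as reference, 5 with group mean ratios, and 0 of 24 within plates, which leaves out the aorta with 2 of the 3 passing tests and whose 210 relabellings could not bring the third past the threshold on its own. The cause of the other changes was not tested.

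No edgeR value that changed sign was called. On plate 1 alone S100A8 in Lard aortic valves was -0.53, and CSF3R in Lard and IR/CHT mitral valves was -0.40 and -0.21. On plate 2 alone CSF3R in Lard and IR/CHT aortic valves was 1.05 and 0.81, S100A9 in pulmonary valves was -0.0027 (CHT), -0.31 (Lard), -0.97 (IR/CHT) and -0.96 (IR/CHT against CHT), and S100A9 in tricuspid valves was 0.48 (Lard) and -0.23 (IR/CHT). With single libraries left out, aortic valve S100A9 in CHT ran from -0.12 (without L244) to 0.61, S100A8 in Lard from -0.76 (without L190) to 1.09, and CSF3R from -1.15 to 0.57 in Lard and -1.08 to 0.50 in IR/CHT, both highest without Ctrl L150. Without L196, S100A9 in the IR/CHT pulmonary valve was -0.53 against Ctrl and -0.78 against CHT, and without L177 in the tricuspid valve -0.36.

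With the rabbit as a block the S100A12 difference between mitral and tricuspid valve in IR/CHT was -1.11, and the block, which pairs the tissues of a rabbit, changed no call of a member. Relative to the macrophage genes, values of the other sign were, with group mean ratios, S100A8 in the aorta 0.19 (CHT) and 1.86 (IR/CHT, passed), S100A9 1.02 (Lard aorta), 0.034 (CHT pulmonary valve) and 0.67 (IR/CHT tricuspid valve), and CSF3R 0.44 (aortic valve, IR/CHT against CHT) and 0.11 (IR/CHT mitral valve). With a prior count of 0.5 they were 1.07 for S100A8 (IR/CHT aorta), -0.059 for S100A9 (tricuspid valve, IR/CHT against CHT) and 0.46 for CSF3R (aortic valve, IR/CHT against CHT). With CSF1R alone S100A9 was 0.083 (CHT pulmonary valve), 0.032 (Lard tricuspid valve) and -0.020 (tricuspid valve, IR/CHT against CHT). With CD68 alone S100A8 was -1.97 (IR/CHT aortic valve, passed) and CSF3R -0.033 (Lard aortic valve) and -0.68 (CHT mitral valve). Depth limits S100A12 and MPO most, with a median of 0 read pairs per library each.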
